A study of Drosophila melanogaster with 3 samples.

Results

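Clustered peaks are peaks of the Neu2-GFP list that lay close to another peak of the same list, and 400 of the 1471 peaks were of this kind (27.2%, 95% Clopper-Pearson interval 24.9 to 29.5%). They were chosen by the pooled summit positions alone. A peak was kept when at least 1 other summit lay within 5000 bp on the same chromosome arm, and neighbours were chained into 185 clusters. The remaining 1071 peaks had no other summit within that distance and are called isolated. The list is the authors' optimal list, made from the replicates together and limited to calls past their reproducibility threshold. Longer relaxed lists of 30000 calls, for each replicate and pooled, also hold weaker calls, and every call carries a deposited signal value of the authors, which ranks calls within a list. Positions were measured by chromatin immunoprecipitation and sequencing (ChIP-seq) in whole embryos of Drosophila melanogaster, of both sexes together and aged 2 to 4 h. The embryos carried a stable transgene of Neu2 with green fluorescent protein at its C-terminus, which was precipitated through the GFP tag from chromatin sonicated to 200 to 800 bp. There were 3 biological replicates of this single genotype and no second group, so comparisons were made between peaks. The promoter that drove the fusion and the cells that contained it are not stated in the labels, and whole embryos give 1 value for all tissues together.

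Neu2 belongs to the zinc-finger-associated domain (ZAD) family, a group of insect transcription factors that dimerise through the ZAD and touch DNA through C2H2 zinc fingers. Several of its relatives are known at gene promoters and at insulator elements. Transcription factors often have more than one site in a regulatory region, and genes that are read from alternative promoters or that share a promoter region with a neighbour offer several places for binding within a short distance. At this age the embryo forms its cells and starts transcribing its own genome on a large scale.

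Sequences at some of the closest pairs and strongest clusters are shown first, on the plus strand of dm6. Capitals mark the words that were searched, on the plus and the minus strand alike. They were TATCGATA (the DRE, the element of the factor Dref) and its part TATCGA, the first AT-rich word ATTTAA and the second one CTTAAA. The others were CAGGTAG for the factor Zelda, GAGAG for GAGA factor, AGGTGGCG for CTCF and GGTCACAC for Motif 1. The DRE contains its part on either strand, and both AT-rich words can overlap. In the first pair, 2 summits lay 201 bp apart between the divergent genes Glg1, which encodes a Golgi glycoprotein, and M6, which encodes a membrane proteolipid. The summit of signal 581 fell on the base before a DRE and the summit of signal 116 had none of the words within 50 bp. In the second pair the summit upstream of CtsF, which encodes a cathepsin protease, had 103 and its stronger neighbour 199 bp away had 476. The stretch upstream of the CtsF start held a whole DRE and 2 further copies of TATCGA. In the third pair, also 199 bp apart, the first base shown is the summit of CdGAPr, a GTPase-activating protein gene, and a DRE follows the summit of CG10466. In the fourth, between hdm and Ykt6, the summit at hdm lay between 2 copies of TATCGA. Each of these 4 is a stretch of promoter that is free of annotated UTR. Windows of 300 bp at the close pairs of fu and Usp10, with strongest signals of 518 and 516, are not shown. That at fu held none of the words and that at Usp10 held ATTTAA only. Among all 55 pairs at most 250 bp apart, such windows held the DRE in 5 (9.09%), compared with 8.53% of TSSs of protein-coding genes (transcription start sites).

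Glg1 and M6, 3L:21507539-21507806: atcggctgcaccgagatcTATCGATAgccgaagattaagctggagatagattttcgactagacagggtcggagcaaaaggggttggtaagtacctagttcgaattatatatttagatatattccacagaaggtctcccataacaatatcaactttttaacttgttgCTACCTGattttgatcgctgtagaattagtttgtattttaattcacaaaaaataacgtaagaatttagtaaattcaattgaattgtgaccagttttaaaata
CtsF, 3R:5251746-5251914: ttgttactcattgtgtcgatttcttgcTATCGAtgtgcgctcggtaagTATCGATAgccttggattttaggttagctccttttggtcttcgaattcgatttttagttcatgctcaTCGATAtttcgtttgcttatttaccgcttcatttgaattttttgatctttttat
CdGAPr and CG10466, 2L:19791883-19792103: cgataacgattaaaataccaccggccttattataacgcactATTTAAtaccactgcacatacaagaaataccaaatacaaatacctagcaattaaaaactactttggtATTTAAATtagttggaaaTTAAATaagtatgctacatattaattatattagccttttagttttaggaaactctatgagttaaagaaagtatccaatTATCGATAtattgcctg
hdm and Ykt6, X:7920180-7920408: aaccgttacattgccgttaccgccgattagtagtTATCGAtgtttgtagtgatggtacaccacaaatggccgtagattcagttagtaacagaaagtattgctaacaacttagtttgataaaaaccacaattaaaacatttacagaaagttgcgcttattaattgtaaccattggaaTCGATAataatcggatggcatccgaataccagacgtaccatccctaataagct

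The next 5 windows, of 50 bp on either side of the summit, show how members of 1 cluster differed from each other. The first 3 belong to the cluster of ph-p, where the promoter summit of signal 622 carried CTTAAA and overlapping AT-rich letters. Both intron summits, of 105 and 113, carried none of the words. The other promoter summit of ph-p, of signal 122 and not shown, also carried CTTAAA. The last 2 belong to the cluster at cbt. Its promoter summit of signal 162 held GAGAG and ATTTAA, and its summit of signal 904 held CTTAAA. The latter lay 1377 bp upstream of the nearest cbt TSS, and its label of intron refers to ush, whose span holds cbt. The other cbt promoter summit, of signal 95.4 and not shown, held GAGAG.

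ph-p, promoter, X:2137274-2137374: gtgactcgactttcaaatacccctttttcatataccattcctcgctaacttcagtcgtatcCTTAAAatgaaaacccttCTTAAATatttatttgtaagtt
ph-p, intron, X:2135367-2135467: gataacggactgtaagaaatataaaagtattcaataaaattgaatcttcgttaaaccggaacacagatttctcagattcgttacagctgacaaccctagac
ph-p, intron, X:2134402-2134502: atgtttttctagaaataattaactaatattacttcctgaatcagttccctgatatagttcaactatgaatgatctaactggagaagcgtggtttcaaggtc
cbt, intron, 2L:481015-481115: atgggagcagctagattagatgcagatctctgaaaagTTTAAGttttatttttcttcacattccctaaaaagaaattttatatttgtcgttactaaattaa
cbt, promoter, 2L:480051-480151: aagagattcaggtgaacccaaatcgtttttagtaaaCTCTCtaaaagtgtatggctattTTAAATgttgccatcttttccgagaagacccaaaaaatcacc

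Most clusters were pairs. There were 162 clusters of 2 peaks, 16 of 3 and 7 of 4, and none was larger. The clusters spanned 199 to 11663 bp from first to last summit, with a median of 2048 bp. Over the whole list, peaks were on average 91.0 kb apart, and the median distance between neighbours was 43119 bp. The share of clustered peaks was similar on the large arms, with 82 of 289 peaks on 2L, 82 of 280 on 2R, 87 of 303 on 3L, 92 of 365 on 3R and 57 of 221 on X. The small chromosome 4 had 0 clustered peaks among 13, which allows a share of up to 24.7% by the Clopper-Pearson interval. The X held 4 of the 7 clusters of 4 peaks, those of ph-p, pico, Hr4 and Raf. Of these, 3, all but that of pico, lay within a stretch of 357 kb that held 18 peaks, and a stretch of that length on X held 3.36 peaks on average. The stretch also held 15, 12 and 16 of the strongest calls of replicates 1, 2 and 3. It was picked out after its values were seen, and stretches of the same length on 3L and 3R held up to 19 and 17 peaks.

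The spacing within clusters fell into a tight and a loose part. Of the 215 neighbouring pairs, 55 lay at most 250 bp apart, 3 lay between 250 and 500 bp and 21 between 500 and 1000 bp. From there each kilobase up to 5 kb held 29 to 39 pairs, and the next, beyond the limit of the rule, held 35. The list showed no break at 5 kb. The last pairs inside the limit were Clc and rdgC at 4950 bp, Srrm1 and RpS4 at 4963 bp, and Gk2 and CG13921 at 4992 bp. The first pairs outside it were within trx at 5015 bp, beside CG31797 at 5034 bp and within CAP at 5096 bp.

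**Figure D1:**
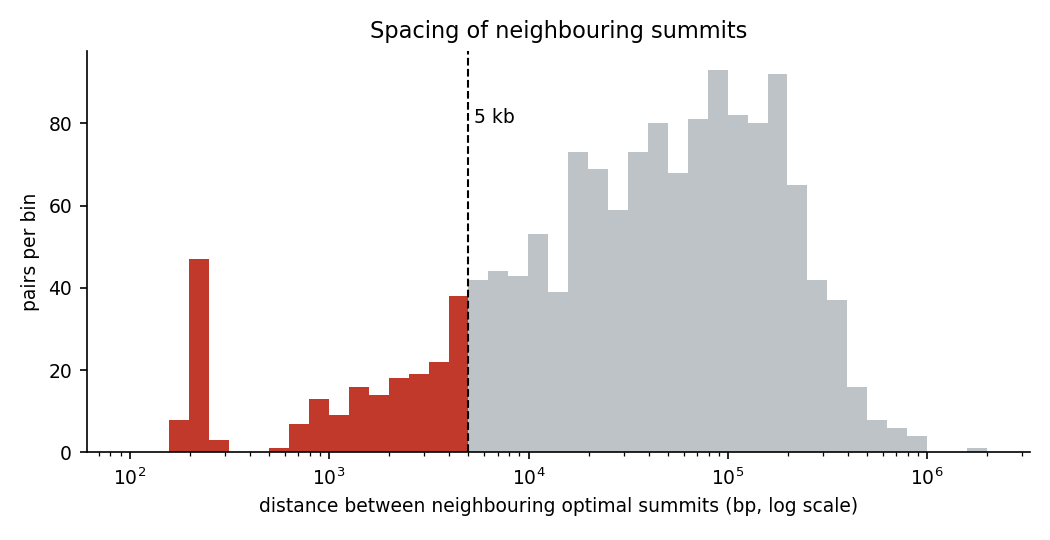
Distance between neighbouring summits of the optimal list on the same arm, in bp on a log scale, with the number of pairs per bin. Red bins are pairs of clustered peaks and grey bins are wider pairs; the dashed line is the 5 kb limit, and the separate red group at the left holds the 58 pairs at most 500 bp apart.

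No 2 summits of the optimal list were closer than 199 bp, and the same smallest distance was found in the pooled list and in each replicate's list of 30000 calls. Among the tight pairs, 46 lay at 199 to 210 bp. The intervals of all 55 overlapped, and their weaker member had the usual width of 440 bp, shared by 1357 of the 1471 peaks, in 55 of 55 pairs. The stronger member had that width in 44 of 55. How the authors' caller splits an enriched stretch into separate calls is not stated, and its part in the tight pairs was not tested. When summits within 500 bp were merged into the stronger one, 294 of 1413 peaks remained clustered (20.8%).

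Tight clusters, with all summits within 500 bp, differed in their makeup from spread clusters. The 48 tight clusters held 96 peaks, of which 66.7% were at promoters, and the 137 spread clusters held 304 peaks, of which 54.3% were. A position counted as promoter when a transcription start site (TSS) of any protein-coding gene lay within 500 bp. The strongest member of a tight cluster had a median deposited signal of 183 and its neighbour 103, a median ratio of 1.68. In spread clusters the strongest member had a median of 159 and the others 106, and the median ratio of the strongest to the second was 1.38. These values describe peaks of 1 pooled list and were given no test.

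**Figure D2:**
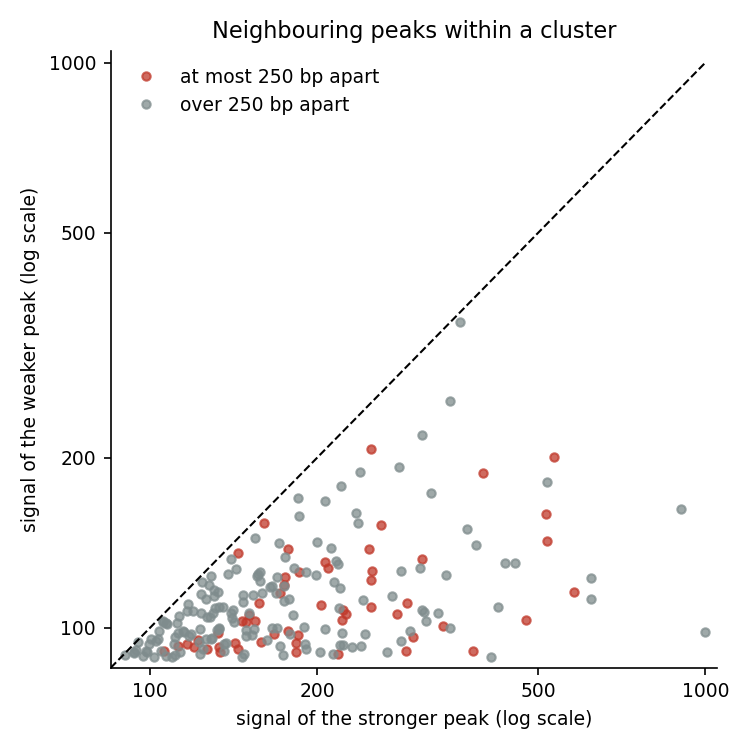
Deposited signal of the stronger (x axis) and the weaker (y axis) peak of each of the 215 neighbouring pairs, both on log scales, with the dashed line at equal signal. Red points are the 55 pairs at most 250 bp apart and grey points the wider ones; the weaker peak had at most 348, and the widest ratio was at px, 998 against 98.4.

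The share of clustered peaks could be set against lists of the same length from the same libraries. Among the 1471 calls of highest signal, replicate 1 had 353 clustered calls (24.0%), replicate 2 had 486 (33.0%) and replicate 3 had 417 (28.3%). The optimal list thus lay within the range of its replicates. Later blocks of 1471 calls down the pooled list, by rank of signal, had between 11.4 and 22.0% clustered calls over 19 blocks, with a median of 14.8%. All 19 lay below the optimal list and below each replicate's strongest calls. The blocks also differed in position, with 54.0% of calls at promoters in the optimal list, 45.1% in the next block and 15.5% in the last. With summits within 500 bp merged the optimal list had 20.8% clustered, below the 22.0% of the highest later block, which was not merged. The blocks come from 1 list and are not replicates, so no test was made. Shifting all summits of an arm together around that arm keeps their distances and left the number of clustered peaks at 400 in each of 9 shifts, so the shifts carry no information on cluster sizes.

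**Figure D3:**
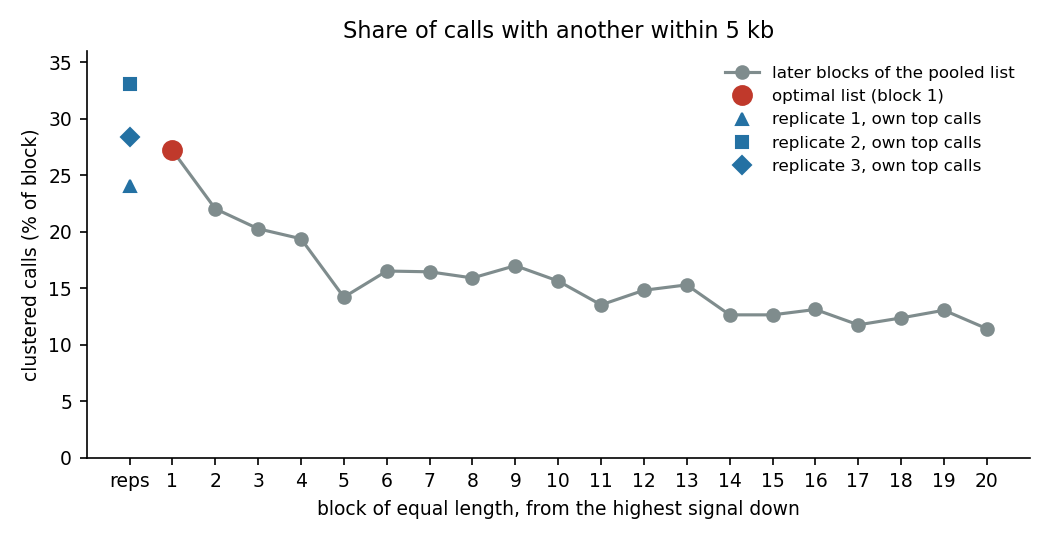
Share of calls with another call of the same block within 5 kb (y axis, percent) for the optimal list and the 19 later blocks of equal length of the pooled list, in order of falling signal (x axis). Blue symbols at the left are the strongest 1471 calls of each replicate; they and the optimal list (red) lie at 24.0 to 33.0%, above the 11.4 to 22.0% of the later blocks.

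The cluster with the strongest signal among those of 4 peaks was in ph-p, which encodes polyhomeotic, a core subunit of Polycomb repressive complex 1. Its main summit lay 469 bp upstream of a ph-p TSS and had a pooled signal of 622. Relative signal, the signal in a replicate divided by that replicate's median at the optimal peaks, was 6.69, 4.37 and 3.96 there in replicates 1, 2 and 3. The peak was far above its neighbours in all 3 replicates. The summit at the outermost ph-p start, 660 bp away, had relative signals of 0.976, 0.509 and 1.85, and the intron summits 0.855, 1.04 and 1.06 and 0.496, 1.08 and 0.799. All 4 summits lay in the first 3919 bp of a gene of 12.2 kb.

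In pico, which encodes an adaptor of the actin cytoskeleton, 2 promoters and 2 intron positions were occupied within 4894 bp. The summit 67 bp downstream of the outermost TSS had relative signals of 2.67, 2.72 and 2.81, and the intron summit at the other end 1.97, 1.49 and 1.65. Both stood above the middle summits in every replicate. The middle ones had 0.859, 1.00 and 1.18 at the inner promoter and 0.721, 1.25 and 0.990 in the intron. Of the 4 peaks, 3 were matched in all 3 replicates, meaning that each replicate had a summit among its 1471 strongest calls within 200 bp, which held for 43.4% of all 1471 peaks.

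The cluster at phol, which encodes a DNA-binding Polycomb group protein, joined 3 genes. Its strongest peak was at the promoter of CG3552, with 2.41, 2.03 and 2.11, and the summit at the phol promoter had 0.734, 0.873 and 1.07. The gene CG44838 had a promoter summit with 1.40, 0.906 and 0.705 and an intron summit with 0.948, 1.02 and 0.742. The order of the 3 weaker members was not the same in the replicates, while the CG3552 peak was highest in each.

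The widest cluster, of 11663 bp, ran from the promoter of CG3587 into Hr4, which encodes a nuclear receptor of the ecdysone response. The Hr4 intron summit 5821 bp from the TSS was highest, with 1.82, 1.74 and 1.69, and varied little between replicates (mean 1.75 ± 0.0694, SD, n = 3). The outer intron summits had means of 0.753 ± 0.163 and 0.842 ± 0.150 and the CG3587 promoter 0.736 ± 0.278 (SD, n = 3 each). Of the 4 peaks, 1, the Hr4 summit of highest signal, was matched in all 3 replicates.

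In Raf, which encodes a kinase of the receptor tyrosine kinase pathway, signal was spread more evenly. The means were 1.33 ± 0.360 at the promoter of the neighbour CG2865, 1.56 ± 0.274 in the Raf 5′ UTR, 1.31 ± 0.304 at the intron summit 207 bp further on, and 1.49 ± 0.122 at the last intron summit (SD, n = 3 each). The largest difference between these means was smaller than the SD at 3 of the 4 summits. It was that between the 2 middle summits, which took the value of the same call in replicates 1 and 3. Only replicate 2 told these apart, with 1.79 and 1.03. All 4 were matched in all 3 replicates within 200 bp, but in replicates 1 and 3 the 2 middle summits were matched by the same call. Replicate 2 had a longer chain here, of 8 of its strongest calls over 12699 bp.

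The last clusters of 4 were those at by and Pgk. At by, which encodes the adhesion protein tensin, a 3′ UTR summit had 1.03, 1.10 and 1.22, and the tight promoter pair at the other end of the gene had means of 1.34 ± 0.153 and 0.899 ± 0.441 (SD, n = 3 each), with 1 shared call in replicate 2. The intergenic summit beyond it had a mean of 0.741 ± 0.0761 (SD, n = 3). At Pgk, the gene of the glycolytic enzyme phosphoglycerate kinase, 2 promoter summits were followed by a summit in Bacc and by 1 at HemK2. Pooled signals at by ran from 89.8 to 175. Those at Pgk ran from 88.7 to 112, and at Pgk 0 of the 4 peaks were matched in all 3 replicates.

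**Figure D4:**
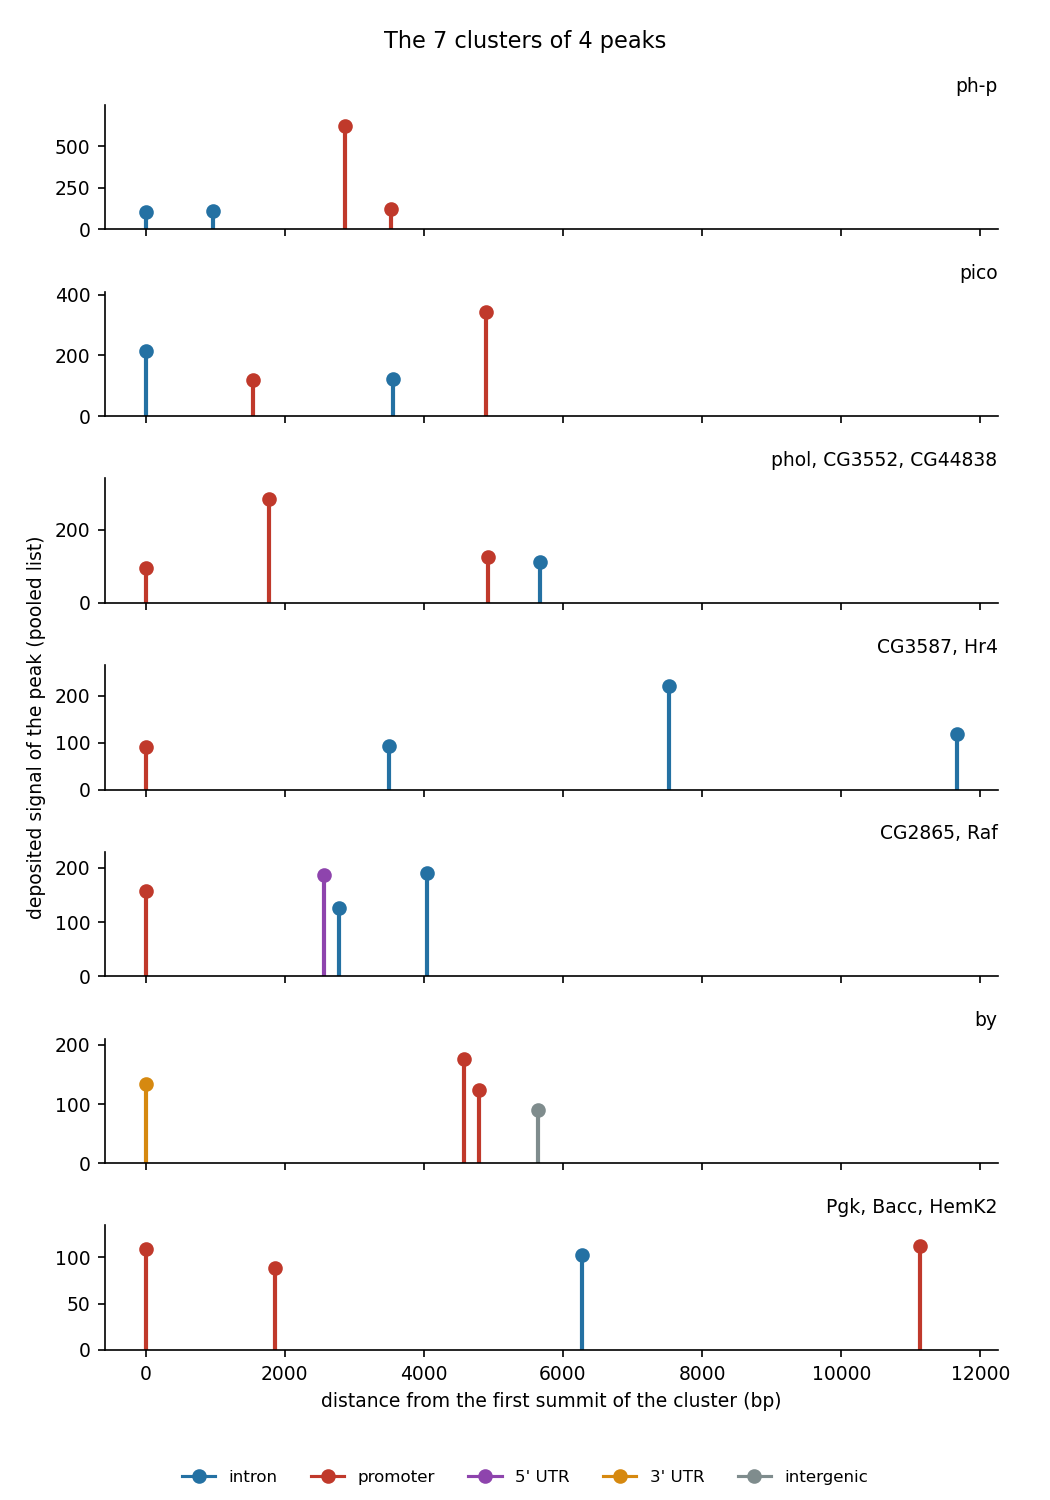
The 7 clusters of 4 peaks, 1 panel each, with the distance of every summit from the first summit of its cluster (x axis, bp) and its deposited signal in the pooled list (y axis, own scale per panel). Colours give the annotated position; in ph-p 1 promoter peak stands above the rest, in Raf and Pgk the members are closer in height.

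Among the 16 clusters of 3, that at cbt had the strongest peak. The gene cabut encodes a zinc-finger transcription factor and lies inside the span of ush, which encodes a partner of GATA factors. The summit 1377 bp upstream of the cbt TSS had relative signals of 7.82, 7.23 and 6.41, against 1.68, 1.23 and 0.950 at the summit 413 bp upstream of the TSS and 0.529, 0.636 and 0.913 at the summit 499 bp downstream. The order was the same in all 3 replicates. At px, the gene of a nuclear wing vein factor, the strongest peak of the whole list had 7.77, 8.73 and 7.01, and its intron neighbour 0.451, 0.928 and 0.664. Other clusters of 3 had promoter summits only, as in Rtnl1, a reticulon gene, or intergenic ones only, as near Jhbp1.

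Further strong peaks had a weaker neighbour close by. In koi, which encodes a SUN-domain protein of the nuclear envelope, the coding exon summit had 4.35, 4.03 and 4.33 and the 3′ UTR summit 204 bp away 1.15, 2.24 and 1.71. At the promoter of Usp10, a deubiquitinase gene, the values were 5.50, 2.74 and 4.44 at one summit and 1.46, 1.41 and 0.783 at the other, 211 bp apart. In an intron of nAChRalpha4, an acetylcholine receptor gene, summits 199 bp apart had 2.52, 1.99 and 2.06, and 0.563, 0.836 and 0.620. In these 3 pairs the same summit was higher in every replicate. In the cluster of 3 at CG4004 and Paics, the Paics summit had 0.731, 0.499 and 1.21. The 2 summits in CG4004 were closer in level, with 3.71, 3.11 and 1.74 at one summit and 3.23, 2.58 and 2.65 at the next, 950.0 bp away. Which of them was higher changed between replicates.

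Over all 185 clusters the strongest member exceeded the second by a median of 1.44 times, by over 2 times in 47 clusters and by under 1.2 times in 38. The largest ratio was 10.1, at px. In 159 clusters every member had a call within 200 bp in every replicate, and in 103 of these the same member was strongest in all 3 replicates (64.8%); in those 103 it was also strongest in the pooled list. The pooled list was made from the same libraries, so this is no independent check.

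Clustered peaks were slightly stronger than isolated ones in the pooled list, with medians of 124 and 117, and the difference was not established over replicates. Median relative signal was 1.06, 1.11 and 1.01 at clustered peaks in replicates 1, 2 and 3, and 0.976, 0.964 and 0.997 at isolated peaks. Clustered peaks were higher in 3 of 3 replicates, by 0.0806 ± 0.0624 (SD, n = 3; exact sign-flip permutation test, two-sided, p = 0.25, the smallest that 3 replicates allow). As a share of the median signal of the list, the difference between the pooled medians was 0.0616. Among peaks matched in both remaining replicates it was 0.00530 without replicate 1, 0.0790 without replicate 2 and 0.00257 without replicate 3. Summits closer than the matching distance can share a replicate's call, and then carry the same value. Cut by signal into 5 groups of equal size, the list held 34.4% clustered peaks (28.9 to 40.1%) in the strongest group, with signals from 172 to 998, and 21.0% (16.5 to 26.1%) in the weakest. The 3 groups between held 24.8, 27.9 and 27.9%, so the share did not fall in even steps. Of the 100 peaks of highest signal, 38 were clustered.

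Clustered and isolated peaks lay at much the same kinds of position. Promoters held 57.3% of clustered peaks (95% Clopper-Pearson interval 52.2 to 62.2%) and 52.8% of isolated peaks (49.7 to 55.8%). Introns held 23.8% and 26.5%, and intergenic positions 13.0% and 13.1%. Coding exons were rarer among clustered peaks, 4 of 400 against 33 of 1071, and 3′ UTRs more frequent, 11 of 400 against 12 of 1071, both on small counts. Intervals cover counting error only. Neighbours in a cluster are not independent, so these are too narrow.

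The promoter difference did not hold from replicate to replicate. Among each replicate's own 1471 strongest calls, promoters held 56.1, 51.2 and 55.9% of clustered calls in replicates 1, 2 and 3, and 51.2, 56.0 and 52.7% of isolated calls. Clustered calls were higher in replicates 1 and 3 and lower in replicate 2. The mean difference was 1.11 ± 5.20 percentage points (SD, n = 3; exact sign-flip permutation test, two-sided, p = 0.75). Merging summits within 500 bp brought the difference in the optimal list down to 0.73 points, compared with 4.50. Among peaks matched in both remaining replicates it was 3.54 points without replicate 1, 9.53 without replicate 2 and 5.51 without replicate 3. Under 9 circular shifts, 8.25 to 12.3% of clustered summits fell at promoters, and the share in the data was above all 9. The strongest members of clusters were at promoters about as often as the others, with 57.8% of 185 and 56.7% of 215.

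By composition, 79 clusters had promoter summits only, 53 mixed promoter and other positions and 53 had none at a promoter. Of the last, 24 lay in introns only and 17 in intergenic sequence only. A single gene was nearest to all members in 109 clusters (58.9%), compared with 136 to 152 clusters under the shifts. The shifts also move summits away from promoters, so they cannot show that such clusters were few. Among neighbouring pairs, both summits were at promoters in 95, 1 in 57 and none in 63.

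The 95 promoter pairs split into those on 1 gene and those on 2 genes. The 37 pairs on 1 gene lay a median of 208 bp apart, and in 10 of them the summits were over 500 bp apart. In 8 of the 10, the summits were nearest to different annotated starts, in 7 genes: ph-p, Rtnl1, Ptpmeg2, jigr1, slv, aru and Pgk. Rtnl1 had 3 promoter summits over 7570 bp. They lay 270, 156 and 293 bp upstream of 3 different starts and had relative signals of 2.40, 1.63 and 2.65, of 1.07, 0.813 and 0.900, and of 1.34, 0.747 and 0.811. The first was highest in every replicate. Ptpmeg2, a protein tyrosine phosphatase gene, had promoter summits at 3 starts, each matched in all 3 replicates. The clustered ones lay 4833 bp apart, with pooled signals of 174 and 118, and the third, of 156, was isolated. The gene jigr1 had signals of 174 and 89.4 at starts whose summits lay 1031 bp apart, also both matched in all 3.

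The 58 promoter pairs on 2 genes were divergent in 26 cases, on the same strand in 25 and convergent in 7. Of the 10 pairs on different genes that lay within 500 bp, 9 were divergent, and over 500 bp there were 17 divergent, 24 same-strand and 7 convergent pairs. Those 10 all belonged to the tight pairs at most 250 bp apart. How often neighbouring starts this close are divergent among all genes was not computed, so the 9 of 10 is a count only. Protein-coding genes are dense enough that 84.3% of 13945 have the TSS of another within 5 kb. Among pairs with both summits matched in all 3 replicates were aay and Shc, at signals of 252 and 347, and CG13921 and the glycerol kinase gene Gk2, at 520 and 181. CG10674 and the ESCRT gene CHMP2B, at 149.6 and 372, and the histone acetyltransferase gene Hat1 and Hpf1, at 154 and 237, were others.

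More clustered than isolated peaks were matched in all 3 replicates within 200 bp, and the size of the excess depended on how close summits were treated. Within 200 bp, 203 of 400 clustered peaks were matched in all 3 (50.75%, 45.7 to 55.8%) and 435 of 1071 isolated peaks (40.6%, 37.7 to 43.6%), compared with 43.4% of the whole list. The difference was 10.1 percentage points (95% Newcombe interval 4.42 to 15.8). When each call could serve only the summit nearest to it, 43.0% of clustered peaks were matched in all 3 and the isolated share stayed at 40.6%. The difference was then 2.38 points. This matching could only lower the clustered share, because an isolated summit has no other summit near enough to take its calls. By this rule, the clustered peaks no longer matched, 172 compared with 203, were those whose calls went to a nearer summit. With summits within 500 bp merged instead, the difference was 5.87 points. Why merging changed the excess was not tested. Nearest-summit matching was added after the data were seen.

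Support within clusters was uneven. Under nearest-summit matching, the strongest member was matched in all 3 replicates in 58.3% of tight clusters and 69.3% of spread ones, and the other members in 12.5% and 25.7%. The strongest member was chosen by pooled signal, and matching used the strongest calls of the same libraries. A higher share for it was therefore favoured by the choice and is no independent result. Within 200 bp, 30 of 185 clusters had every member matched in all 3 replicates, 37 had at least 2 such members and 52 had none. At least 2 members were matched in 108 clusters in replicate 1, in 113 in replicate 2 and in 87 in replicate 3, and in each of the 3 in 47 (25.4%). Of the 55 tight pairs, 22 had 2 separate calls in each replicate's full list of 30000, and of the 36 pairs at 4 to 5 kb 32 did.

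The CtsF pair shows how a shared call enters the values. Its stronger summit had relative signals of 3.77, 3.72 and 3.71, and its weaker one 0.367, 1.36 and 3.71. The last of these is the same call as that of the stronger summit. At Glg1 and M6 both summits had calls of their own, with 5.65, 3.79 and 4.33 at Glg1 and 0.998, 1.26 and 0.986 at M6. At fu, which encodes a kinase of the Hedgehog pathway, the summits 201 bp apart had 4.89, 3.57 and 4.01, and 1.51, 0.876 and 0.724.

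For each word searched, the 95% intervals of its share at clustered and at isolated summits overlapped. The DRE was within 50 bp of 11 of 400 clustered summits (2.75%, Clopper-Pearson 1.38 to 4.87%) and of 38 of 1071 isolated ones (3.55%, 2.52 to 4.84%). Windows of the same length, centred on the outermost TSS of all 13945 protein-coding genes, held it in 5.56%. TATCGA was in 12.3% of clustered, 10.6% of isolated and 16.1% of TSS windows. At promoter summits alone, the DRE was in 11 of 229 clustered windows (4.80%) and 35 of 565 isolated ones (6.19%), and TATCGA in 16.6% of clustered and 15.8% of isolated ones. ATTTAA was in 22.0% of clustered and 22.1% of isolated windows and in 1673 of the 13945 TSS windows, and CTTAAA in 12.5, 11.8 and 6.90%. GAGAG was in 11.3, 11.9 and 11.5%. The CTCF, Motif 1 and Zelda words were in 1.00% or fewer of clustered and 1.31% or fewer of isolated windows. They were in 0.208, 5.59 and 0.437% of TSS windows. A match describes letters and not a binding site.

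No cluster carried the DRE at 2 of its members, and 11 carried it at 1. In 6 of the 11 it was in the strongest member, and in 5 in another one. TATCGA was in 2 or more members of 8 clusters and ATTTAA in 13. In 300 bp windows centred between the summits, the DRE was in 5 of 55 tight pairs (9.09%), compared with 7.10% of isolated summits in windows of that length and 8.53% of TSSs. TATCGA was in 29.1, 23.2 and 26.8%, and ATTTAA in 50.9, 46.0 and 42.7%. GAGAG went the other way, in 25.5% of tight pairs, 38.0% of isolated summits and 30.6% of TSSs. None of these shares was tested. The windows that follow show copies of these words at summits of moderate and low signal. The eag window, of a potassium channel gene with a signal of 199, held the DRE and the CTCF word. The Mob2 window, of a kinase coactivator gene with a signal of 131, held 1 DRE and 2 more copies of TATCGA. The Pgk and HemK2 windows, of 88.7 and 112, belong to the cluster of 4 and held TATCGA 2 times each.

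eag, promoter, X:14955263-14955363: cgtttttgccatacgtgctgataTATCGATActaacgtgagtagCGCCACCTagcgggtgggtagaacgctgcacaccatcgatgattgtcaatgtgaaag
Mob2, promoter, 3L:11562229-11562329: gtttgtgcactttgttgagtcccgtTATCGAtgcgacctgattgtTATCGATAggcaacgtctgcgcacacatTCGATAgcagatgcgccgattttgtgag
Pgk, promoter, 2L:2750434-2750534: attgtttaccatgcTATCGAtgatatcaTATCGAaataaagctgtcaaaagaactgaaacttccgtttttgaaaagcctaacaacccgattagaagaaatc
HemK2, promoter, 2L:2759702-2759802: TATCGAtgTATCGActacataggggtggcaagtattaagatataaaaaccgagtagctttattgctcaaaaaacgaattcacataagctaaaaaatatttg

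Counted by gene, 38 protein-coding genes held 3 or more summits within their span (0.272% of 13945). Eip75B, an ecdysone-induced nuclear receptor gene, held 6, and the Hox gene Antp and the GTPase-activating protein gene RapGAP1 held 5 each. There were 10 genes with 4 and 25 with 3. These genes were long, with a median of 60.2 kb compared with 2.17 kb for all protein-coding genes. The 9 circular shifts gave 40 to 67 such genes, with a median of 58, so 38 was below all of them. The shifts move summits away from promoters and into long genes, so they cannot show that such genes were few. In every shift the gene with most summits was Myo81F, of 1966 kb, with 12 to 34 summits compared with 2 in the data. The 19 later rank blocks gave 21 to 36 genes, with a median of 29, so 38 was above all 19. With summits within 500 bp merged the optimal list gave 33 genes, inside the range of the later blocks, which were not merged.

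In 8 of the 38 genes every summit was clustered, in 25 some were and in 5 none was. The 8 had a median length of 19.4 kb and the 5 had 149 kb. Genes share summits where they overlap, since ush counts the 3 cbt summits and CG46458 lies within Antp. In Eip75B, 4 of the 6 summits formed 2 tight pairs, 1 at a promoter and 1 in an intron just over 5000 bp away, which were counted as 2 clusters. The promoter summit of signal 250.4 had relative signals of 1.69, 2.11 and 2.32, the highest of the gene in each replicate. The intron pair was served by 1 call in every replicate, at 0.942, 0.693 and 1.29, and the promoter pair by 1 call in replicate 1.

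In Antp 2 of 5 intron summits were clustered, with relative signals of 1.21, 1.97 and 1.05 and of 0.582, 1.10 and 0.692. The 5 summits spread over 61001 bp of the gene. In Trl, which encodes GAGA factor, 3 summits lay within 2373 bp, and the intron summit 1534 bp from a TSS was the highest at 2.88, 2.06 and 2.21. In SKIP all 4 summits lay in the first 13865 bp of a gene of 162 kb, with pooled signals of 114 to 147. In aop, which encodes the repressor Yan, an intron pair had 181 and 105 and the promoter 90.6, below both. In Tlk, which encodes a chromatin kinase, an intron summit had 2.95, 3.54 and 2.49 and its neighbour 0.789, 1.29 and 1.32. The genes CG1677, sick and sbb held 4 summits each, of which 2, 3 and 4 were clustered.

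**Figure D5:**
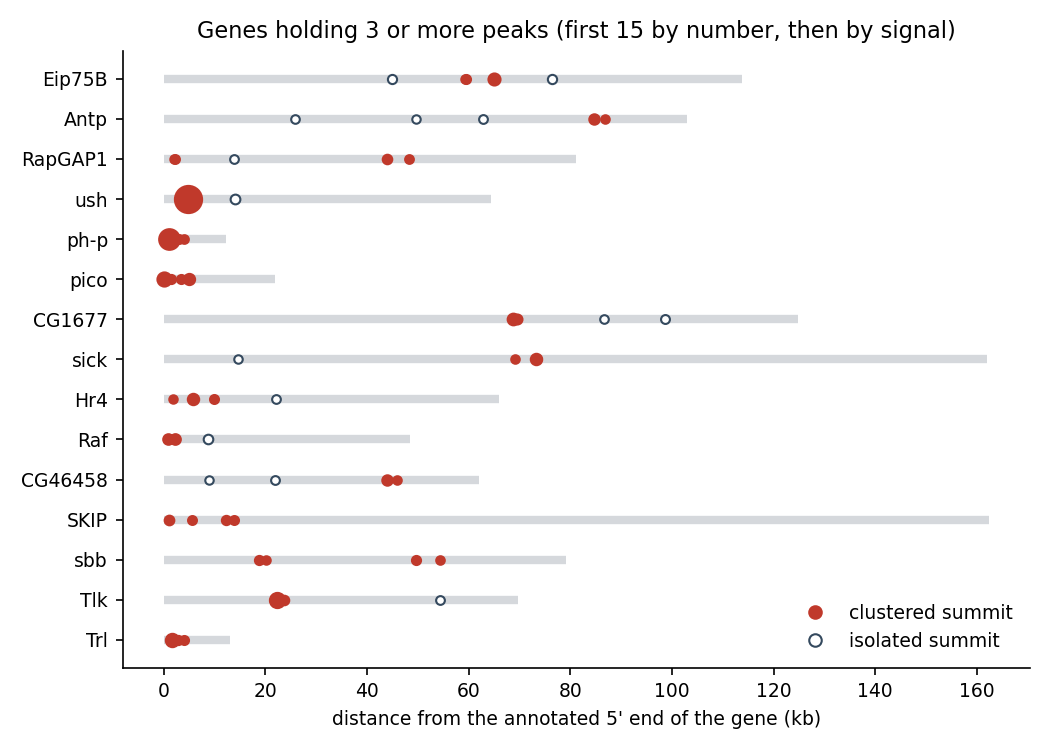
Positions of summits along the 15 genes that head the list of those with 3 or more, as distance from the annotated 5′ end (x axis, kb; grey bars are gene lengths). Filled points are clustered and open points isolated summits, with size rising with deposited signal; in ph-p, pico and Trl every summit is clustered, in Antp 3 of 5 are isolated.

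Gene lists were read against the 302 of 13945 protein-coding genes (2.17%) that had a clustered summit in the span or within 1000 bp of a TSS. Of the Hox list, lab and Antp had one, 2 of 8 genes. The lab summits had relative signals of 1.42, 2.51 and 1.32 at 4154 bp from the nearest lab start and 0.514, 1.22 and 0.860 at 1153 bp. Of the Polycomb group list ph-p and phol had one, 2 of 15. Of early patterning transcription factors 1 of 37 had one, which was ush through the cbt summits. Insulator and boundary proteins had 1 of 18, Trl. Signalling genes had 3 of 23, which were fu, Raf and wg. The Wnt ligand gene wg had a promoter summit at 0.844, 0.813 and 1.03 and an intergenic one 3395 bp away at 1.08, 1.29 and 1.10.

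The list of ZAD zinc-finger genes held 17 measured genes, 1 of which, Sry-alpha, acts in cellularisation and encodes no ZAD zinc-finger protein. Of the other listed genes 2, Sry-beta and Sry-delta, had a clustered summit. The 3 Sry genes lie side by side and shared 1 cluster. The summit assigned to Sry-alpha and Sry-beta had a pooled signal of 111 and that at the Sry-delta promoter 93.7. The strongest peak of that cluster, at 190.3, was at the promoter of CG7943 and within 1000 bp of the start of the ribosomal protein gene RpL32. Sry-alpha was also the single gene among 10 of the first-wave and cellularisation list. Of the secretory list 2 of 18, Glg1 and Sec61alpha, had a clustered summit. Of the cytoplasmic ribosomal proteins 7 of 85 had one, including RpS19a at 298, which shares its promoter summit with Rok, RpL10Ab at 290.5 and RpL34b at 207. Counts in these lists were small, the lists differ in gene length and some genes share a peak.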

How the data were processed

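Peak lists of 3 biological replicates of Neu2-GFP embryos were analysed. Per the labels, the authors used the assemblies dm6 and dm3. Which aligner and caller they ran, and at which threshold of the irreproducible discovery rate, is not given in the sources used here. The control was not used here. The deposited signal of each call is the authors' own value, used to rank and describe calls within a list; the authors' summit offset (another deposited measure, in bp) gave positions. The lists hold no read counts, so depth is unknown.

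From these, clusters, the 1471 strongest calls per replicate, matches within 200 bp and relative signal were computed with Python 3.11.15, numpy 2.4.6 and scipy 1.17.1, and figures with matplotlib 3.10.9. Positions were annotated with Ensembl release 115 on the 6 main arms, promoters taking precedence over UTRs, these over exons, and introns over intergenic sequence. Computations on planted clusters were tested on simulated data. Circular shifts moved all summits of an arm in 9 equal steps of its length. Genes were named by the nearest protein-coding TSS, taking the largest and strongest clusters, the closest pairs, the pairs around 5000 bp, genes with 3 or more summits and listed genes with a clustered summit. Members of other promoter pairs, aay, Shc, CG10674, CHMP2B, Hat1, Hpf1, Ptpmeg2, jigr1, slv, aru, eag and Mob2, and further Rtnl1, Jhbp1, aop, Myo81F and RpL32, were named after their values were seen. The members and lists were chosen with earlier results of these data known.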

Additional observations from a re-analysis of the deposited data

Results flagged for a closer look

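On the dm3 build, 16 optimal peaks lay on contigs outside the main arms, which the comparisons above leave out. Of these, 4 were clustered, in 2 pairs on 3LHet. The first pair had summits at 715601 and 715805, with deposited signals of 217 and 89.5, and the second at 1226901 and 1229924, with 239 and 93.1. They were picked out because they are signal in data that no comparison used. The summits lay 204 bp apart in the first pair and 3023 bp apart in the second.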

How the results depend on the processing

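The number of clustered peaks was 260 at a chaining distance of 2500 bp and 607 at 10000 bp, 119 among peaks matched in all 3 replicates and 118 among the 735 peaks of highest signal. It was 151 to 191 when peaks were required in both remaining replicates with 1 replicate left out, lowest without replicate 2. Fewer peaks enter these last lists, of which 16.1 to 23.1% were clustered. Merging summits within 500 bp gave 294, the dm3 list 376 and leaving out X 343. Genes with 3 or more summits numbered 4 among peaks matched in all 3, 5 among those 735, 6 to 7 with 1 replicate left out, 60 when 2000 bp were added to each span, and 8 when only genes under 20 kb were counted. With summits within 500 bp merged there were 33. The promoter difference turned to -1.76 percentage points with promoters of 250 bp, and kept its direction in the other 9 settings, at 0.73 to 9.54 points. It was 8.13 among peaks matched in all 3, 9.54 among the 735, and 3.54 to 9.53 with 1 replicate left out, highest without replicate 2. The difference in matching in all 3 replicates was 3.49 points at a matching distance of 100 bp, 17.6 at 500 bp and 2.38 with nearest summits only. It was 5.87 with summits within 500 bp merged, 8.05 and 7.78 at chaining distances of 2500 and 10000 bp, and -0.478 among the 735. With nearest summits only, the rule itself gave shared calls to the nearer summit. For the other settings the cause was not tested. The signal difference, 0.0616 of the median signal of the list, kept its direction in 9 of 9 settings but came close to 0 in some. It was 0.00257 without replicate 3, 0.00530 without replicate 1 and 0.0790 without replicate 2, and 0.0383 to 0.0873 in the other 6 settings. Nearest summits only, leaving out X and the limit of 20 kb were chosen after seeing the data. No paired analysis was possible because all replicates belong to 1 group and no second group shares their numbers; clustered and isolated calls were compared within each replicate instead. Depth is not recorded in the lists, so how it bears on the weaker members was not tested.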
